A study of Mus musculus with 8 samples.

Results

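The small leucine-rich proteoglycans are secreted matrix proteins built around a curved array of leucine-rich repeats, and 9 of their genes were followed here by name (Dcn, Bgn, Aspn, Lum, Fmod, Prelp, Omd, Ogn and Podn) among the 27179 genes of the count table. All 9 were found through their Entrez Gene identifiers. Both populations came from lungs of C57BL/6 mice (female C57BL/6J in the study's methods) with a rearrangement of Eml4 and Alk, which the labels call Eml4-Alk translocation, induced by adenovirus as a model of lung adenocarcinoma, at 18 to 22 weeks of age and 11 to 12 weeks after induction. Every animal had received 4.5 nmol of QZ1-(PEG2K) by tail vein, a quenched Cy5 peptide probe that becomes fluorescent and binds nearby cells once a protease cuts its linker, and lungs were collected after 2 h. Live cells negative for CD45 and CD11b, markers of blood lineage, were sorted by probe signal into a QZ1-hi population (labelled QZ+) and a QZ1-lo population (labelled QZ-), and bulk RNA-seq gave 4 libraries of each. The libraries are called 1 to 4 within each population in the order of their labels, and nothing in the labels links the populations mouse by mouse. The labels give lung as the tissue, and cells of tumors and of surrounding tissue are not told apart. Each library held 18380918 to 26847938 counts, of which mitochondrial and ribosomal RNA genes took 43.7% to 65.6% in QZ1-hi and 34.0% to 53.2% in QZ1-lo.

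Members of this family bind collagen fibrils and set their diameter and spacing, and most carry chondroitin, dermatan or keratan sulfate chains. Several also bind growth factors, TGF-beta above all, and in the lung their transcripts are known mainly from fibroblasts and other mesenchymal cells of the airway, vessel and alveolar wall. The family is divided into classes by sequence and gene structure. Dcn, Bgn and Aspn belong to class I, Lum, Fmod, Prelp and Omd to class II, Ogn to class III and Podn to class V.

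Of the 9 genes, 8 had enough counts to be tested, and 7 of these (Dcn, Bgn, Aspn, Lum, Prelp, Ogn and Podn) passed an adjusted p of 0.05 with the higher level in QZ1-hi. None was lower. Across all 15583 genes tested, 9.88% were higher by the same rule (edgeR quasi-likelihood test, Benjamini-Hochberg adjustment over all genes). The median log2 fold change of QZ1-hi relative to QZ1-lo was 3.23 over the 8 tested genes and 0.02 over all genes tested. With mitochondrial and ribosomal RNA genes removed, each of these 7 genes still passed. Aspn, Lum, Fmod and Ogn had fewer than 10 counts in QZ1-lo library 4 and entered the test through their QZ1-hi libraries. When at least 10 counts were required in every library, only Dcn, Bgn, Prelp and Podn were tested, and all 4 were higher. Fmod did not pass the test, and Omd was too low to be tested but was counted in QZ1-hi libraries alone. In 7 of the 8 tested genes every QZ1-hi library lay above every QZ1-lo library, a separation found in 11.9% of all genes tested. Bulk RNA cannot tell a smaller number of expressing cells from less RNA in each of them.

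**Figure D1:**
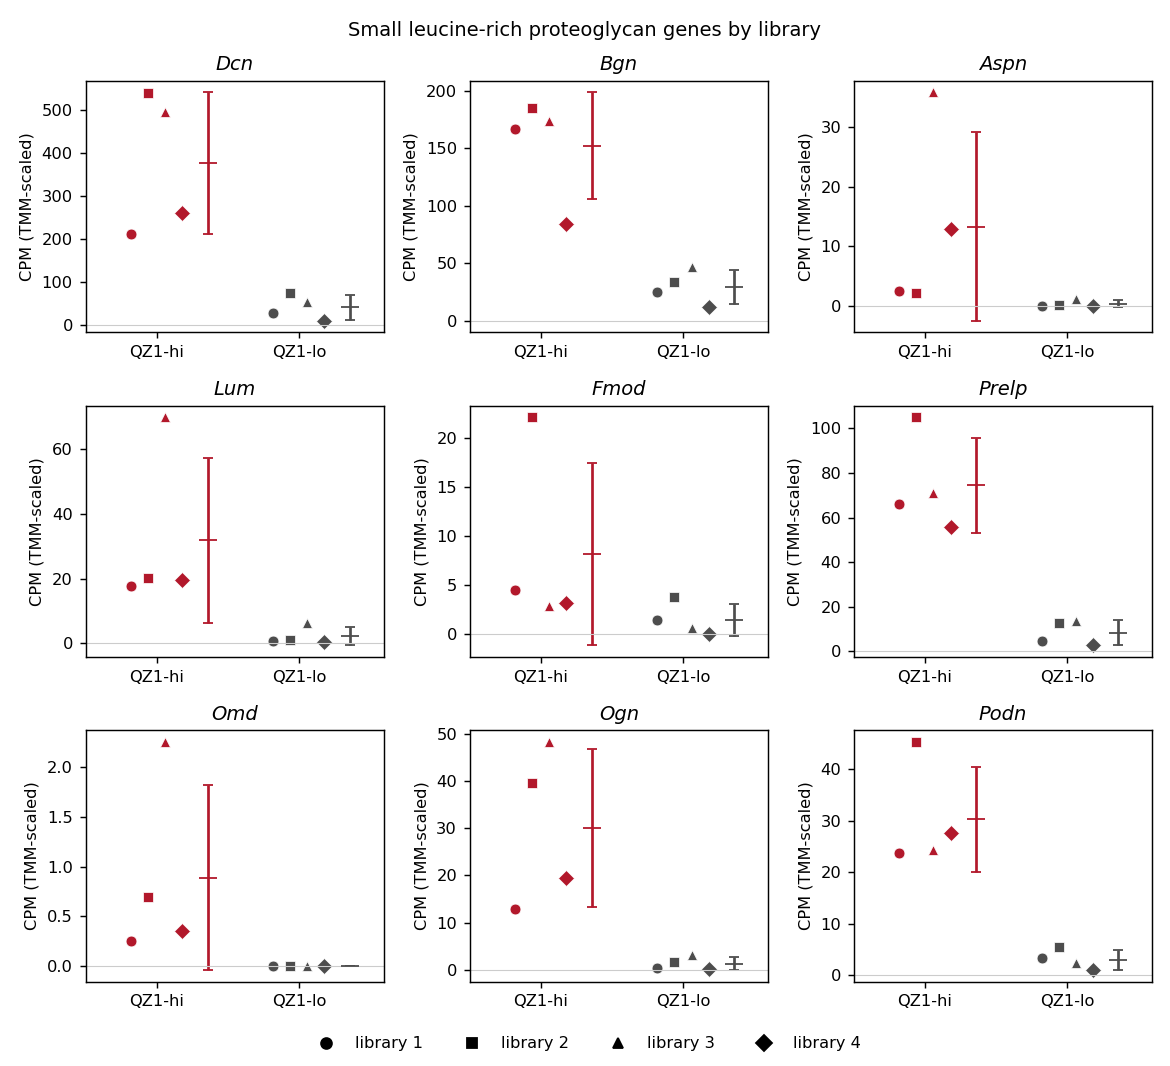
Level of each proteoglycan gene in each library, in CPM (counts-per-million of the TMM-scaled library size) on linear axes that differ between panels, with the mean and SD of the 4 libraries of each population beside the points. For Fmod, QZ1-lo library 2 (3.70 CPM) lies above QZ1-hi libraries 3 and 4 (2.83 and 3.16 CPM), and the other panels show no overlap.

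The class I genes were read first. Dcn encodes decorin, which binds collagen fibrils and TGF-beta and carries a single glycosaminoglycan chain. Dcn (Entrez Gene 13179) lies on chr10:97479609-97518143, plus strand, in GRCm38. It stood at 212, 540, 495 and 262 CPM in QZ1-hi libraries 1 to 4 and at 28.5, 75.1, 53.9 and 10.9 CPM in QZ1-lo libraries 1 to 4. The lowest QZ1-hi library was thus well above the highest QZ1-lo library. Means were 377 ± 164 and 42.1 ± 28.2 CPM (SD, n = 4 libraries each), and the log2 fold change was 3.16 (SE 0.53, edgeR adjusted p = 0.0018), or 8.96-fold.

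Bgn encodes biglycan, the nearest relative of decorin, which also acts as a ligand of Toll-like receptors. Bgn (Entrez Gene 12111; chrX:73483602-73495933, plus strand) had 167, 185, 174 and 83.9 CPM in QZ1-hi and 25.2, 34.2, 46.4 and 11.7 CPM in QZ1-lo. Library 4 was the lowest of each population. The log2 fold change of 2.38 (SE 0.38, edgeR adjusted p = 0.00137), or 5.19-fold, was the smallest among the genes that passed.

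Aspn encodes asporin, a class I protein that is named for a run of aspartate residues and binds collagen. The study lists Aspn among its markers of myofibroblasts, with Pdgfra, Fgf18, Rgs2 and Wif1. Of these others, Pdgfra was higher (log2 fold change 3.38, SE 0.49). Fgf18 (1.23, SE 0.83), Rgs2 (0.26, SE 0.13) and Wif1 (-1.82, SE 0.82) did not pass. Aspn (Entrez Gene 66695; chr13:49544443-49567565, plus strand) had 2.46, 2.17, 35.8 and 12.9 CPM in QZ1-hi and 0.0894, 0.244, 1.27 and 0 CPM in QZ1-lo. Libraries 3 and 4 carried most of the QZ1-hi level, a 16.5-fold spread between the lowest and the highest QZ1-hi library, the widest of the 9 genes. Its log2 fold change of 5.03 (SE 1.14, edgeR adjusted p = 0.0101) was the 14th largest of all genes tested. Without QZ1-hi library 3 it was 3.82, and without QZ1-lo library 3, which held 35 of the 44 QZ1-lo counts, it was 6.85. limma-voom with sample weights did not call Aspn (5.58, adjusted p = 0.189).

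Of the class II genes, Lum encodes lumican, a keratan sulfate proteoglycan that regulates fibril spacing and is best known for corneal transparency. Lum (Entrez Gene 17022; chr10:97565128-97572703, plus strand) had 17.6, 20.2, 69.9 and 19.5 CPM in QZ1-hi and 0.716, 1.14, 6.33 and 0.368 CPM in QZ1-lo. Library 3 stood above the rest in both populations. The log2 fold change was 3.89 (SE 0.80, edgeR adjusted p = 0.00617), or 3.14 without QZ1-hi library 3 and 5.41 without QZ1-lo library 3.

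Prelp encodes a protein of basement membrane borders that binds collagen and, through its basic end, heparan sulfate. Prelp (Entrez Gene 116847; chr1:133910304-133921414, minus strand) had 65.9, 105, 71.1 and 55.7 CPM in QZ1-hi and 4.62, 12.7, 13.4 and 2.62 CPM in QZ1-lo. The populations were far apart and the spread within QZ1-hi was only 1.88-fold, the narrowest of the 9 genes. Its log2 fold change was 3.16 (SE 0.45, edgeR adjusted p = 0.000853). A predicted gene on the opposite strand, Gm15851, overlaps 350 exon bases of Prelp, and the strand setting of the counting is not given in the sources used here.

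Fmod encodes fibromodulin, a collagen-binding proteoglycan of tendon and cartilage. Fmod (Entrez Gene 14264; chr1:134037254-134048277, plus strand) had 4.45, 22.1, 2.83 and 3.16 CPM in QZ1-hi and 1.37, 3.70, 0.579 and 0 CPM in QZ1-lo. QZ1-hi library 2 stood far above the other QZ1-hi libraries, and the populations overlapped. The log2 fold change of 2.53 (SE 0.99, edgeR adjusted p = 0.11) did not pass the threshold. It was 1.28 without QZ1-hi library 2 (edgeR adjusted p = 0.47) and 3.60 without QZ1-lo library 2 (edgeR adjusted p = 0.0499). The value and the call thus depended on which library was left out.

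Omd encodes osteomodulin, a keratan sulfate proteoglycan of bone matrix. Omd (Entrez Gene 27047; chr13:49582462-49592822, plus strand) had 6, 14, 39 and 6 counts in QZ1-hi libraries 1 to 4 and 0 counts in all 4 QZ1-lo libraries. A count of 0 allows up to 3 counts, or 0.0894 to 0.123 CPM in the QZ1-lo libraries, for counting error only. The QZ1-hi mean of 0.890 ± 0.929 CPM (SD, n = 4) was 8.04-fold the mean of that floor over the QZ1-lo libraries. This value does not bound the spread between QZ1-hi libraries, of which library 3 held 39 of the 65 counts. Omd failed the filter on low counts, and in edgeR without a filter its adjusted p was 0.01.

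Ogn, of class III, encodes osteoglycin, also called mimecan, a small proteoglycan of bone, vessel wall and cornea. Ogn (Entrez Gene 18295; chr13:49608046-49624501, plus strand) had 12.8, 39.6, 48.3 and 19.5 CPM in QZ1-hi and 0.358, 1.63, 3.18 and 0.164 CPM in QZ1-lo. Libraries 2 and 3 were the higher ones in each population. The log2 fold change was 4.49 (SE 0.73, edgeR adjusted p = 0.00163), or 22.5-fold, and rose to 5.41 when QZ1-lo library 3 was left out.

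Podn, of class V, encodes podocan, first described in the kidney and present in vascular smooth muscle. Podn (Entrez Gene 242608; chr4:108014791-108096445, minus strand) had 23.8, 45.3, 24.3 and 27.6 CPM in QZ1-hi and 3.40, 5.61, 2.32 and 1.02 CPM in QZ1-lo. The other QZ1-hi libraries lay between 23.8 and 27.6 CPM, and library 2 was the highest of both populations. Its log2 fold change of 3.29 (SE 0.43) had the smallest adjusted p of the family, 0.000562 (edgeR).

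**Figure D2:**
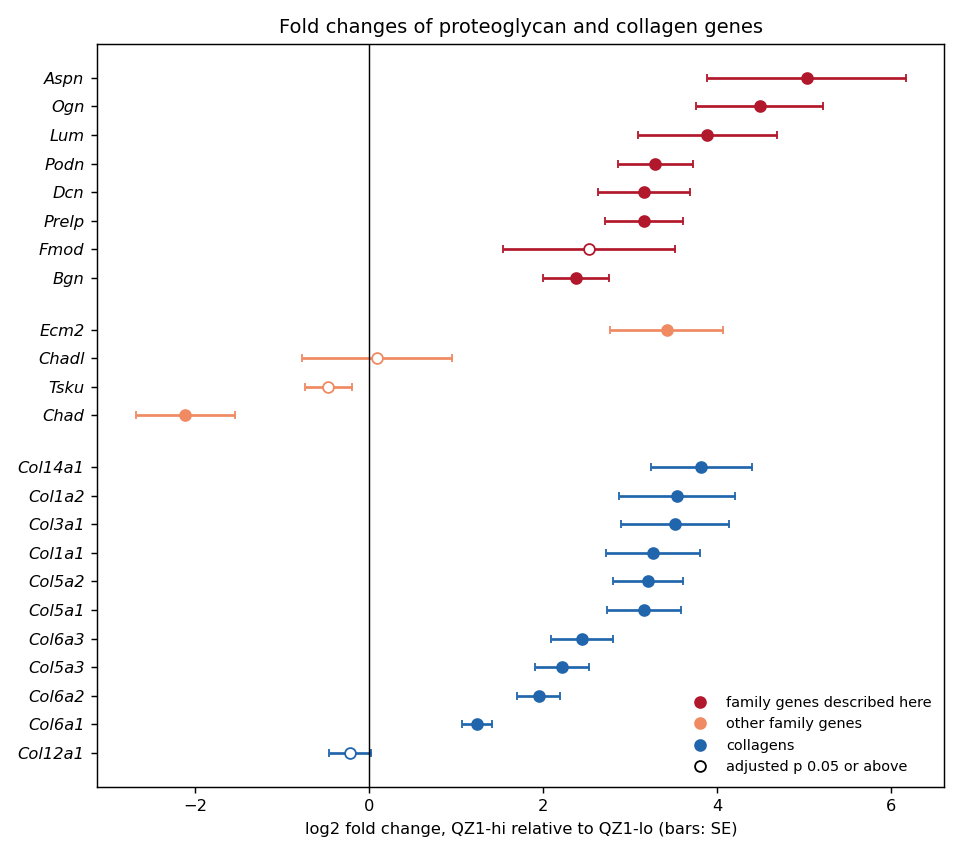
Log2 fold change of QZ1-hi relative to QZ1-lo for the tested proteoglycan genes, the other tested genes of the family and the collagens, with bars for the SE and open points for an adjusted p of 0.05 or above. The proteoglycan genes lie between 2.38 and 5.03, Ecm2 lies among them, and Chad lies on the other side of 0.

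Within each population the libraries did not rank alike for all genes. In QZ1-hi, library 2 was the highest for 5 genes (Dcn, Bgn, Fmod, Prelp and Podn) and library 3 for the other 4 (Aspn, Lum, Omd and Ogn). In QZ1-lo, library 4 was the lowest for every one of the 8 genes with counts in that population. Its summed level over the 9 genes was 26.7 CPM, where the remaining QZ1-lo libraries had 64.3 to 134 CPM, and the QZ1-hi libraries 484 to 960 CPM. Library 4 of QZ1-lo thus held the least proteoglycan RNA of all 8 libraries, from 653 counts in all. The log2 fold changes without it ranged from 2.11 for Bgn to 4.64 for Aspn, and each gene called with all libraries was also called without it.

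Levels were compared between genes after division by exon length (CPM per kb). In QZ1-hi the order was Dcn (195 ± 84.7), Bgn (63.0 ± 19.2), Prelp (20.6 ± 5.88), Lum (13.0 ± 10.4), Ogn (11.7 ± 6.50), Podn (9.54 ± 3.21), Aspn (5.73 ± 6.79), Fmod (2.61 ± 3.0) and Omd (0.396 ± 0.413), each in CPM per kb with the SD of 4 libraries. Dcn did not overlap Bgn, and Bgn did not overlap Prelp. From Prelp downwards each gene overlapped its neighbour in this order. In QZ1-lo the range of Dcn (21.7 ± 14.5 CPM per kb) overlapped that of Bgn (12.1 ± 6.06 CPM per kb). Within every QZ1-lo library, though, Dcn was above Bgn. Prelp followed at 2.30 ± 1.52 CPM per kb with no overlap with Bgn. Decorin and biglycan transcripts were therefore the main ones by level in both populations.

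As a share of the summed level per kb, Dcn made up 59.5% ± 6.55 in QZ1-hi and 53.4% ± 7.24 in QZ1-lo (SD, n = 4 each). Bgn made up 20.6% ± 7.30 in QZ1-hi and 33.9% ± 7.58 in QZ1-lo, with values of 31.5%, 17.8%, 17.2% and 16.1% in QZ1-hi libraries 1 to 4 and 36.7%, 23.4%, 34.3% and 41.2% in QZ1-lo libraries 1 to 4. The QZ1-hi library 1 share lay inside the QZ1-lo range. The share of Ogn was 3.47% ± 0.910 in QZ1-hi and 1.08% ± 0.802 in QZ1-lo, with the lowest QZ1-hi library at 2.27% and the highest QZ1-lo library at 2.22%. Lum reached 6.81% and Aspn 3.67%, both in QZ1-hi library 3. These shares were not tested.

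**Figure D3:**
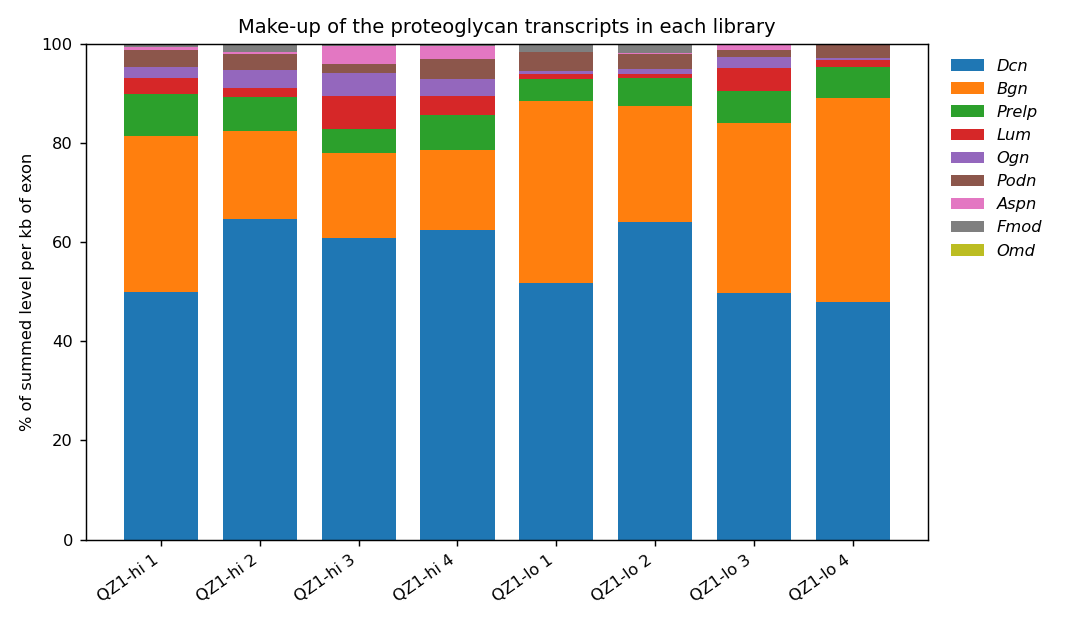
Share of each of the 9 genes in their summed level per kb of exon, one bar per library on an axis from 0 to 100%. Dcn takes 48.0% to 64.7% of every bar, and Bgn takes 16.1% to 41.2%.

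Ratios between 2 genes within a library do not depend on the scaling between libraries, and 8 pairs were tested by exact permutation (two-sided, 70 ways of assigning the libraries). No pair passed after Benjamini-Hochberg adjustment over the 8 pairs (smallest adjusted p = 0.343, exact permutation test). A single pair at the smallest p that 4 libraries against 4 allow, 0.0286, would by itself adjust to 0.229, so these tests could pass only together. The Dcn to Bgn ratio differed most by p. Its log2 value was 1.26 ± 0.61 in QZ1-hi and 0.36 ± 0.54 in QZ1-lo (SD, n = 4 each), a difference of 0.90 (SE 0.41; exact permutation test, two-sided p = 0.0571). QZ1-hi library 1, at 0.35, fell inside the QZ1-lo range of -0.10 to 1.13. The differences were -0.97 (SE 0.72) for Dcn to Lum, -1.28 (SE 1.10) for Dcn to Aspn, 1.45 (SE 1.55) for Lum to Fmod, 0.94 (SE 0.70) for Lum to Prelp. With a library left out in turn they lay between -1.51 and -0.55, -2.05 and -0.67, 0.64 and 2.28, and 0.47 and 1.39, in the same order. The ratio of Ogn to Omd differed by 1.81 (SE 0.90) with the prior count of 2 and by 0.16 with a prior count of 0.5, since Omd had no counts in QZ1-lo. The lower prior count also moved Dcn to Aspn to -2.01. Outside the family, the log2 ratio of Dcn to Col1a2, which encodes a chain of type I collagen, differed by -0.76 (SE 0.44, and between -1.05 and -0.39 with a library left out). The ratio to Pdgfrb, a receptor gene of pericytes and fibroblasts, differed by 0.28 (SE 0.45). Libraries were treated as unpaired. An equal change of the genes in a pair is not shown by these tests.

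Several of the genes sit side by side in the genome. On chromosome 13 the plus-strand genes Ecm2, Aspn, Omd and Ogn follow each other with gaps of 11.7, 14.9 and 15.2 kb, all inside the span of Cenpp, a kinetochore gene on the opposite strand, whose exons overlap those of Aspn by 7 bases. Ecm2, a family member by sequence, rose with its neighbours, from 1.33 ± 1.16 to 14.4 ± 12.1 CPM (SD, n = 4 each; log2 fold change 3.42, SE 0.65, edgeR adjusted p = 0.00394). It stood at 6.06, 8.84, 32.3 and 10.3 CPM in QZ1-hi, highest in library 3, where Aspn, Omd and Ogn were highest too. Without QZ1-hi library 3 its log2 fold change was 2.64, and without QZ1-lo library 3 it was 4.23. Cenpp itself was at 1.13 ± 0.360 CPM in QZ1-hi and 1.36 ± 1.04 CPM in QZ1-lo (log2 fold change -0.27, SE 0.63, edgeR adjusted p = 0.833).

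On chromosome 10 Dcn and Lum lie 47.0 kb apart, followed by Kera and Epyc at gaps of 34.2 and 30.4 kb. Kera, the keratocan gene of the cornea, had 0 counts in all 8 libraries, although its neighbour Lum was among the genes that rose. Epyc, the epiphycan gene of cartilage, had 9 and 13 counts in QZ1-hi libraries 1 and 3 and 0 counts in the other 6 libraries. On chromosome 1 Optc, whose gap to Prelp is 2.3 kb, had 1 count in all. Transcripts of these neighbours were thus not all detected.

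The 250 bases before the start of 3 genes of the chromosome 13 cluster are given next to those of Bgn on the X chromosome, since the cluster holds the largest fold changes and Bgn the smallest that passed. They come from RefSeq on GRCm38.p6, 5′ to 3′ on the strand of the gene, with the TATA box letters TATAAA, the Sp1 letters GGGCGG and the letters CCAAT in capitals wherever they occur on either strand. Windows were found for 7 of the 9 genes, with Dcn and Lum unmatched. They lie at chr13:49544193-49544442 for Aspn, chr13:49582212-49582461 for Omd, chr13:49607765-49608014 for Ogn and chrX:73483351-73483600 for Bgn, all on the plus strand. The Ogn window ends at the RefSeq start, 49608015, and not at the GENCODE start given above, 49608046. The bases checked after it were not found in a GENCODE transcript of Ogn, unlike those after the other windows.
Aspn: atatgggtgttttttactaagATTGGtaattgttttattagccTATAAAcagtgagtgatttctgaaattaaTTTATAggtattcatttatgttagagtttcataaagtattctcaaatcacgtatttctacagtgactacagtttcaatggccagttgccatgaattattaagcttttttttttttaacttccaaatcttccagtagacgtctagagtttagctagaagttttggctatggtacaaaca
Omd: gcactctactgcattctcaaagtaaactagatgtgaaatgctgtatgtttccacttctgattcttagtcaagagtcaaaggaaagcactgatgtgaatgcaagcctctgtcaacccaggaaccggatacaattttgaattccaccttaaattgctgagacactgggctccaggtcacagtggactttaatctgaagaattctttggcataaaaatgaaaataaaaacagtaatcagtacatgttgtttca
Ogn: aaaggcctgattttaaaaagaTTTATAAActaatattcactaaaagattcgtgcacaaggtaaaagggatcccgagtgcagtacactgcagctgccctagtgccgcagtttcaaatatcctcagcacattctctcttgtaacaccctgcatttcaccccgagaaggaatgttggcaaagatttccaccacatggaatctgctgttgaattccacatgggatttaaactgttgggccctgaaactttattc
Bgn: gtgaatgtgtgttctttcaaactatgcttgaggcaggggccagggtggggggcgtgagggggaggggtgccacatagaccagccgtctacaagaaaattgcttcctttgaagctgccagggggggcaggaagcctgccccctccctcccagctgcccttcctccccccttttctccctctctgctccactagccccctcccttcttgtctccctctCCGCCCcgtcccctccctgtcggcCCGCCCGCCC

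The Bgn window held 64.4% G and C and 3 overlapping or neighbouring matches to GGGCGG, which 32.7% of all 32851 windows of this length hold. The cluster windows were poorer in G and C, at 30.0% for Aspn, 38.4% for Omd and 42.0% for Ogn, and had no GGGCGG. Of the windows not shown, the 2 of Podn (log2 fold change 3.29) held 78.0% and 64.0% G and C, with GGGCGG in the first only. Those of Prelp (3.16) and Fmod (2.53) held 55.6% and 51.2%, without GGGCGG. Matches to TATAAA, held by 12.4% of all windows, began 207 and 178 bases before the start of Aspn and, overlapping each other, 229 and 227 bases before that of Ogn. Aspn also held CCAAT (33.8% of all windows). Omd held none of these letters, and none of the 4 windows held TGANTCA, the AP-1 letters, which 6.7% of all windows hold. With 2, 1, 4 and 7 CG pairs, Aspn, Omd and Ogn were under and Bgn over the median of 6 over all windows. CAGCTG (13.0% of all windows) was found in Ogn and Bgn, in lower case here, and GTCTAGAC (0.2%) in none of the 4. These matches describe letters in the windows and were not tied to expression.

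The other genes of the family were split in direction. Of 9 such genes (Ecm2, Kera, Epyc, Optc, Chad, Chadl, Nyx, Tsku and Podnl1), 4 were tested, of which Ecm2 was higher, Chad was lower, and Tsku and Chadl did not pass. Their median log2 fold change was -0.19. Chad encodes chondroadherin, a class IV protein of cartilage. It had 0.636, 1.53, 0.289 and 3.04 CPM in QZ1-hi and 6.02, 7.12, 5.79 and 4.71 CPM in QZ1-lo. All QZ1-hi libraries were below all QZ1-lo libraries, and the log2 fold change was -2.11 (SE 0.57, edgeR adjusted p = 0.0238), where 8.21% of all genes tested were lower. Its call was lost without QZ1-hi library 1 (adjusted p = 0.0594), QZ1-lo library 1 (0.0515) or QZ1-lo library 2 (0.0619), each by edgeR, and without QZ1-hi library 4 the log2 fold change was -2.80. Chad lies inside the span of Acsf2, whose own log2 fold change was 0.46 (SE 0.25, edgeR adjusted p = 0.251). Tsku, which encodes tsukushi, a secreted modulator of BMP and WNT signals, had 5.73 ± 1.17 CPM in QZ1-hi and 7.94 ± 2.37 CPM in QZ1-lo (SD, n = 4 each; log2 fold change -0.47, SE 0.27, edgeR adjusted p = 0.288).

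The collagens that these proteins bind rose with them. Of 11 collagen genes, 10 were higher and Col12a1 did not pass (log2 fold change -0.22, SE 0.24), with a median log2 fold change of 3.16. The fibril-forming Col3a1 went from 77.6 to 892 CPM (log2 fold change 3.52, SE 0.62), Col1a1 from 57.4 to 550 CPM (3.26, SE 0.54) and Col1a2 from 30.0 to 350 CPM (3.54, SE 0.67). Col6a1, a chain of the beaded filaments of type VI collagen, changed by 1.24 (SE 0.17), less in log2 terms than any of the proteoglycan genes that passed. Summed over the list, collagen levels were 1740 to 3380 CPM in QZ1-hi and 167 to 498 CPM in QZ1-lo, lowest in library 4 of each population.

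The enzymes that build the sugar chains gave a mixed picture. Of 21 tested genes for chondroitin and dermatan sulfate, 8 were higher, 1 was lower and 12 did not pass, with a median log2 fold change of 0.50. Csgalnact1, which starts chondroitin chains, rose by 2.35 on the log2 scale (SE 0.43, edgeR adjusted p = 0.0033), and its relative Csgalnact2 was the gene that fell, by 0.66 on the log2 scale (SE 0.13, edgeR adjusted p = 0.0058). Dse and Dsel, the epimerases that turn chondroitin into dermatan sulfate, were both higher, nearer the threshold. Their log2 fold changes were 0.58 (SE 0.17, edgeR adjusted p = 0.0308) and 1.18 (SE 0.37, edgeR adjusted p = 0.0474). Chsy1, a chain polymerase, and Fam20b, a kinase of the linkage region, had values of 0.12 (SE 0.15) and -0.08 (SE 0.15) and did not pass. With one library left out in turn the number that were higher lay between 3 and 6, below the full count each time. Of 8 tested genes for keratan sulfate, the sulfotransferases Chst1 (2.73, SE 0.60) and Chst2 (2.09, SE 0.37) and the galactosyltransferase B4galt4 (1.29, SE 0.30) were higher, B4galt1 was lower (-0.50, SE 0.15, edgeR adjusted p = 0.044, a call lost without QZ1-hi library 2, 3 or 4 or QZ1-lo library 1, 2 or 3), and 4 did not pass, among them B3gnt7 (0.09, SE 0.26) and B3gnt2 (0.12, SE 0.17).

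Proteases and helper proteins known to process or cut these proteoglycans or their collagen partners were also counted. Of 12 tested genes, 7 were higher and none was lower (median log2 fold change 1.79). Bmp1, the proteinase that removes the propeptides of several family members, stood at 59.6 and 48.1 CPM (log2 fold change 0.31, SE 0.18, edgeR adjusted p = 0.293), and its relative Tll1 rose from 1.02 to 7.73 CPM (2.92, SE 0.55). The enhancers of procollagen processing Pcolce and Pcolce2 rose by 1.51 (SE 0.24) and 3.74 (SE 0.79) on the log2 scale. Mmp2 (3.17, SE 0.46), Mmp3 (4.40, SE 0.64), Adamts4 (3.97, SE 0.61) and Adamts5 (2.07, SE 0.41) were higher, while Mmp14 was at 92.8 and 76.6 CPM and did not pass (0.28, SE 0.18).

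Growth factors and receptors with links to the family, not all by direct binding, gave 15 tested genes. Of these, 5 were higher, 1 was lower and 9 did not pass (median log2 fold change 0.35). Lrp1, an endocytic receptor of decorin, rose from 204 to 527 CPM (log2 fold change 1.37, SE 0.21), and Tgfbr3 (2.53, SE 0.33), Kdr (2.54, SE 0.40) and Egfr (1.73, SE 0.34) were higher too. The remaining gene that was higher was Tgfbr2 (0.43, SE 0.12), and Igf1r was lower (-0.50, SE 0.13). No gene of this list was called lower without QZ1-hi library 1 or 4 or QZ1-lo library 2 or 3, and 4 rather than 5 were higher without QZ1-hi library 2 or 3 or QZ1-lo library 1, 2 or 3. Tgfbr1 had a value of -0.07 (SE 0.19). The ligands Tgfb1, Tgfb2 and Tgfb3 did not pass, at 0.32 (SE 0.13), 0.10 (SE 0.22) and 0.29 (SE 0.23), nor did the Toll-like receptors Tlr2 and Tlr4. Other matrix proteoglycans gave 4 higher and 5 not passing of 9 tested (median 0.84). Vcan, a large hyaluronan-binding proteoglycan, rose from 13.2 to 55.2 CPM (2.06, SE 0.27) and Hspg2, the perlecan gene of basement membranes, from 97.6 to 216 CPM (1.14, SE 0.24), while Agrn and Srgn had values of -0.41 (SE 0.16) and -0.06 (SE 0.14).

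The genes whose profiles over the 8 libraries were most like those of Dcn, Lum and Bgn were found by the root mean square difference of log2 CPM after centring each gene on its own mean. Nearest to Dcn were Prrx1 (0.163), C1s1 (0.22), Abi3bp (0.238), Serping1 (0.259) and Igfbp6 (0.277), against a median of 1.92 over all genes. Prrx1 is a mesenchymal homeobox gene, and C1s1 and Serping1 encode a complement protease and its inhibitor. Nearest to Lum were Adamtsl3 (0.373), Galnt16 (0.395), Inmt (0.4), Mfap5 (0.428) and Pcolce2 (0.487), against a median of 2.49. Nearest to Bgn were Dpysl3 (0.193), Spon1 (0.217), Tbx4 (0.243), Col6a3 (0.248) and Fkbp10 (0.267), against a median of 1.43. Taking the smallest distances puts all of these genes below the median. Their log2 fold changes were 2.70 to 3.41 for the genes nearest to Dcn, 3.61 to 4.04 for Lum and 2.23 to 2.63 for Bgn. These lie near the fold change of the gene itself, which follows from choosing genes by their profiles over these same 8 libraries. No gene was shared by these 3 lists, and within the family the closest profiles were those of Dcn and Prelp (0.35) and the farthest those of Aspn and Fmod (2.49).

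Markers of the cell types that such a sort could hold were read beside these results. Of 12 tested fibroblast markers 7 were higher (median log2 fold change 2.47), including Fn1 (1.06, SE 0.25), Pi16 (3.34, SE 0.52) and Pdgfra (3.38, SE 0.49). The list shares Col1a1 and Col1a2 with the collagen list. Its sum was 1750 to 2850 CPM in QZ1-hi and 582 to 1030 CPM in QZ1-lo. Fn1 alone held 1260 of the mean sum of 2430 CPM in QZ1-hi and 602 of 743 CPM in QZ1-lo. Of 6 pericyte markers 4 were higher, with sums of 186 to 324 and 19.9 to 59.2 CPM, highest in library 3 of each population. All 4 mesothelial markers were higher, with sums of 38.4 to 268 and 5.93 to 36.5 CPM, highest in library 2 of each population, where Fmod was also highest. Of these 4 calls 0 were left without QZ1-hi library 2, 1 without QZ1-lo library 3 or 4, and 2 without QZ1-lo library 1. Endothelial markers were higher for 9 of 10, with sums of 1490 to 3200 and 182 to 477 CPM. Of 5 smooth muscle markers 2 were higher, or 1 without QZ1-hi library 2 or 3 or QZ1-lo library 1. Cnn1 was lower, at 0.0145 CPM in QZ1-hi and 0.513 CPM in QZ1-lo, from 1 and 56 counts in all. The epithelial list had 9 of 11 genes lower and the surfactant gene Sftpc higher, at 4060 and 2370 CPM, a call lost without QZ1-lo library 1, 2 or 4. None of the 10 leukocyte markers passed. Although CD45-positive cells were gated out, the CD45 gene Ptprc was at 131 CPM in QZ1-hi and 125 CPM in QZ1-lo. Lyz2, at 3600 and 2530 CPM, held most of the mean leukocyte sums of 4020 and 2910 CPM. Cd68 was at 115 and 90.6 CPM and Csf1r at 56 and 38.7 CPM. None of the 4 red cell markers passed, with sums of 131 to 1010 and 282 to 3100 CPM, highest in QZ1-lo library 4. None of 5 tested cartilage markers passed. Sox9 was at 13.4 CPM in QZ1-hi and 7.89 CPM in QZ1-lo, and Col11a2 at 2.62 and 3.54 CPM. Col9a1, Matn1 and Matn3 were near the floor, and Acan was at 0 in every library. None of 4 tested tendon and bone markers passed. Spp1 was at 532 CPM in QZ1-hi and 329 CPM in QZ1-lo. Runx2 was at 10.5 and 13.8 CPM and Scx at 2.65 and 4.19 CPM. Tnmd, Bglap and Sp7 were at 0 in every library. The part of any of these cell types in the proteoglycan differences was not tested.

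**Figure D4:**
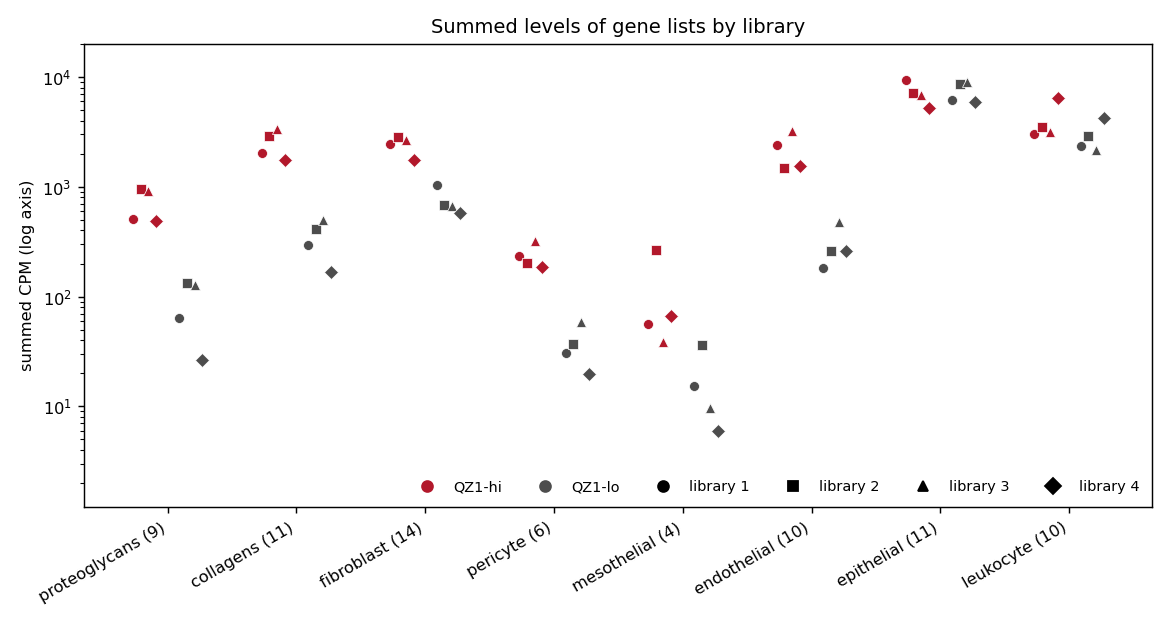
Summed CPM of the proteoglycan genes, the collagens and 6 marker lists in each library on a log axis, with the number of genes in parentheses. The proteoglycan sums (484 to 960 CPM in QZ1-hi, 26.7 to 134 CPM in QZ1-lo) do not overlap, as is also so for the collagen, fibroblast, pericyte, mesothelial and endothelial sums, while the epithelial and leukocyte sums overlap. Lyz2 makes up most of the mean leukocyte sum in both populations, and Fn1 most of the mean fibroblast sum.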

How the data were processed

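RNA of sorted lung cells was measured in 8 libraries. The authors prepared stranded total RNA libraries (Clontech SMARTer), ran a NextSeq500 and used Rsubread for counting. They deposited unnormalized read counts, 1 row a gene, listed by Entrez Gene identifier. The processing notes name mm10 and DESeq2, and the aligner, annotation and strand setting are not given in the sources used here. Of 27179 identifiers, 25275 matched a symbol in the RefSeq table of GRCm38.p6. Of 181 listed genes 180 were found, all but Hbb-bt.

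Differences were tested with edgeR 4.0.16 (R 4.3.3), TMM scaling (factors 0.660 to 1.35), filterByExpr (minimum count 10, minimum total 15) and the quasi-likelihood test over 15583 genes with Benjamini-Hochberg adjustment and a threshold of 0.05. CPM are TMM-scaled. Each SE is the absolute log2 fold change over the root of its F statistic. Log2 ratios and profiles used a prior count of 2. The floor of 3 counts was 0.0894 to 0.179 CPM. Exon lengths, overlaps and gene positions were taken from GENCODE M21 on GRCm38, lengths from transcripts with a RefSeq match. P-values measure the spread between libraries, called biological replicates in the series text. The procedure was tested on simulated data. The proteoglycan genes, lists and pairs were chosen with earlier results of these data known. Genes were named by a rule: the 9 genes, list members by mean CPM or by a call against the rest of the list, and the 5 nearest profiles of Dcn, Lum and Bgn. Chst1, Chst2, Csgalnact1, Dsel, Tll1, Pcolce2, Mmp3, Adamts4, Adamts5, Tgfb1 to Tgfb3, Tgfbr3, Tlr2, Tlr4, Egfr, Pdgfra, Fgf18, Rgs2, Wif1, Cenpp, Acsf2 and list genes at or near 0 were named after their values were seen. Alternatives were DESeq2 1.42.0, limma-voom 3.58.1, DESeq2 size factors, library size only, other filters, robust shrinkage, a threshold of 0.01, removal of mitochondrial and ribosomal RNA genes, and each library left out.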

Additional observations from a re-analysis of the deposited data

Results flagged for a closer look

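Of 23 sets of 4 libraries examined for a single library far from the rest, 4 stood out by Dixon's ratio, where chance gives about 1 in 20. Lum in QZ1-hi library 3 was at 69.9 CPM, with a gap of 0.95 of the range of the QZ1-hi libraries, and Lum in QZ1-lo library 3 was at 6.33 CPM, with a gap of 0.871 of the QZ1-lo range. Ecm2 in QZ1-hi library 3 was at 32.3 CPM (0.838 of the range). Fmod in QZ1-hi library 2 was at 22.1 CPM (0.916 of the range), the library with the highest mesothelial marker sum, 268 CPM. The part of cell make-up in these values was not tested.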

How the results depend on the processing

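No paired analysis was possible because nothing in the labels or the methods says which libraries of the populations came from the same mouse. Library numbers follow the order of the labels. Libraries of the same number shared some extremes (Lum and the collagen sum highest in library 3 of both populations, Fmod and the mesothelial sum in library 2, the leukocyte and red cell sums in library 4), and whether they share a mouse was not tested. The number of proteoglycan genes called higher was 7, and 6 to 8 under every alternative but one: with at least 10 counts in every library 4 were called, all of the 4 still tested. None was called lower under any alternative. Dcn, Bgn, Lum, Prelp, Ogn and Podn kept their direction and call in each setting that tested them. Fmod passed with library size only (adjusted p = 0.0412, edgeR), and DESeq2 gave it no p-value. Omd passed in DESeq2 (adjusted p = 5.77e-05) and without a filter (0.01). Over all genes, library size only gave 882 higher and 2509 lower, with a shift of the median (log2 scale) from 0.02 to -0.44, and a threshold of 0.01 gave 902 and 665. With library size only the counts that moved were chondroitin and dermatan sulfate synthesis (3 higher), the other family genes (2 lower), growth factors and receptors (2 lower), other matrix proteoglycans (2 higher, 1 lower), fibroblast (1 lower), smooth muscle (1 higher), epithelial (0 higher), leukocyte (1 lower), red cell (4 lower) and tendon and bone markers (1 lower). limma-voom gave 1 lower among other matrix proteoglycans. The cause was not tested. With one library left out in turn, the ranges were 3 to 6 (chondroitin and dermatan sulfate synthesis, higher), 0 to 1 (keratan sulfate synthesis, other family genes, growth factors and receptors and other matrix proteoglycans, lower, and epithelial markers, higher), 1 to 3 (smooth muscle, higher), 0 to 4 (mesothelial, higher) and 0 to 3 (red cell, lower). The difference in log2 ratio of Dcn to Pdgfrb then lay between -0.02 and 0.56. No pair passed in any setting, a prior count of 0.5 included. Precision is limited by 4 libraries a population and, for Omd, by at most 39 counts in any library.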
